A study of Mus musculus with 12 samples.

Results

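The blood-testis barrier junction genes examined here were 9 genes of mouse testis, *Cldn3*, *Cldn5*, *Cldn11*, *Ocln*, *Tjp1*, *Gja1*, *Cdh2*, *Jam2* and *F11r*, picked by name out of the 20620 genes in the count table. All 9 had a gene row and all 9 were tested in every comparison. The data were 12 libraries made from 6 extracts of C57BL/6 testes at postnatal day 16, 3 from *Mael*+/- males, the controls, and 3 from *Mael*-/- males, in which both copies of *Mael* are mutant. Each extract gave 1 library of total RNA and 1 library of ribosome footprints, the short mRNA pieces that a ribosome shields from nuclease. All testes were taken up in cycloheximide, which holds ribosomes in place on mRNA, so controls and mutants share this treatment. The controls carry 1 mutant copy of *Mael* and no wild-type testes were analysed here. The labels call the 3 samples of a genotype biological replicates and do not say whether animals were pooled.

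The blood-testis barrier is a belt of junctions between neighbouring Sertoli cells, the somatic cells that nurse the germ cells inside the seminiferous tubule. It divides the tubule into a basal part, where spermatogonia divide, and an inner part, where meiosis is completed behind the barrier. Claudins and occludin seal the gap between membranes, junctional adhesion molecules hold the membranes together, scaffold proteins tie them to actin, N-cadherin forms the adherens contacts beside them and connexin 43 forms the channels of gap junctions. In mice the barrier forms in the juvenile testis as the first wave of germ cells enters meiosis.

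The upstream 250 bases of 5 of these genes are shown because the 3 claudins had the widest spread of levels in these testes, whereas *F11r* and *Ocln* were the pair whose levels moved most closely together. The sequences are those of RefSeq on GRCm38.p6, read 5′ to 3′ on the strand of the gene and ending at the base before the annotated start. Capitals mark the letters CCAAT of a CCAAT box, which read ATTGG on the other strand, or the letters GGGCGG of a GC box, which read CCGCCC there.
Cldn11: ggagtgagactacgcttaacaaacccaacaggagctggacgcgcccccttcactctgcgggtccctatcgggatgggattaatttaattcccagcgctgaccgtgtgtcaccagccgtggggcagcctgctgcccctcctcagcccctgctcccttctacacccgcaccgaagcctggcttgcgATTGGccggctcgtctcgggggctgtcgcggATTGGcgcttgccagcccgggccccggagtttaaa
Cldn5: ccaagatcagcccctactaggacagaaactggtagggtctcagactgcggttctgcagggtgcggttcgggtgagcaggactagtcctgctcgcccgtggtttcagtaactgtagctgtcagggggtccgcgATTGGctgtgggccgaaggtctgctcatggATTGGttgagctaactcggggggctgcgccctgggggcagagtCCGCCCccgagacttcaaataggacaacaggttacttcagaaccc
Cldn3: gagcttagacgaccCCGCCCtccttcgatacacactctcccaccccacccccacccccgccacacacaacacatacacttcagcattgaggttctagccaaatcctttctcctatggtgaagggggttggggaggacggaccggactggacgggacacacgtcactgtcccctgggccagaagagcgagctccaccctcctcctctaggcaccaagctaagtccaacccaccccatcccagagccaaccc
F11r: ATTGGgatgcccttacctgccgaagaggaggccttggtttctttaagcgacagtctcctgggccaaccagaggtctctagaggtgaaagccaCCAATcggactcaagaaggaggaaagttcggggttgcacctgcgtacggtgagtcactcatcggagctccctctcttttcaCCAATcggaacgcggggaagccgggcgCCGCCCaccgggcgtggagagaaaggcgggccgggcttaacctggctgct
Ocln: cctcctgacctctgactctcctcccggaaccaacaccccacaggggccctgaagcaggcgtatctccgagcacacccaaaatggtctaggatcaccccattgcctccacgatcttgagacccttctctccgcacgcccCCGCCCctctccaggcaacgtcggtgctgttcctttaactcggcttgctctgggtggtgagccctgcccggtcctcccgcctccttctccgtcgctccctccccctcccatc
They stand at chr3:31149670-31149919 on the plus strand for *Cldn11*, chr16:18776597-18776846 on the plus strand for *Cldn5*, chr5:134985964-134986213 on the plus strand for *Cldn3*, chr1:171437311-171437560 on the plus strand for *F11r* and chr13:100552719-100552968 on the minus strand for *Ocln*, which has 2 starts in the table. *F11r* held 3 CCAAT matches, *Cldn11* and *Cldn5* held 2 each, and *Cldn3* and *Ocln* held 0. A GC box match was present once in each of them but *Cldn11*, and the TATA box letters TATAAA were in none of the 5. Of 32851 upstream windows of the same length, 33.8% held a CCAAT match, 32.7% a GC box match and 12.4% a TATAAA match on either strand. These are matches of letters only. The gene bodies span chr3:31149920-31164326 (*Cldn11*), chr16:18776847-18778262 (*Cldn5*), chr5:134986214-134987476 (*Cldn3*), chr1:171437561-171464593 (*F11r*), chr13:100496504-100552718 (*Ocln*), chr7:65296165-65527850 (*Tjp1*), chr10:56377300-56390419 (*Gja1*) and chr16:84774123-84826380 (*Jam2*) on the same build.

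Gene totals ran from 13697267 to 27462358 counts in the RNA libraries and from 7609932 to 13233565 in the footprint libraries. *Mael* was counted 3800 to 5045 times in the RNA of *Mael*+/- testes and 0, 1 and 2 times in that of *Mael*-/- testes, and 660 to 1294 times against 0, 0 and 7 times in footprints. Sertoli markers were abundant in every library, with *Sox9* between 49.6 and 68.5 counts per 1000000 counts of the library (CPM) in RNA. The first *Mael*+/- extract stood apart in its germ cells. Its pachytene markers had a median log2 level 1.41 above the mean of the RNA libraries and 1.90 above that of the footprint libraries, and its early meiotic markers stood 1.06 and 1.10 above. The 9 junction genes had medians of -0.06 and -0.10 in the same extract on the same scale.

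The levels of the 9 genes within these testes were compared first, per length, because longer mRNAs collect more reads. RNA is given as CPM per kilobase of RefSeq mRNA and footprints as CPM per kilobase of coding sequence, as means ± SD over the 6 extracts of both genotypes. *Cldn11*, the claudin that builds the strands of Sertoli tight junctions, had the highest level on both scales, with 376 ± 30.7 in RNA and 1561 ± 135 in footprints (SD, n = 6). These values stood at the 99.4th and 99.9th percentile of 13395 genes. *Cldn11* exceeded the next gene in 6 of 6 extracts on both scales, by 4.27 times in RNA and 4.76 times in footprints.

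Connexin 43 (*Gja1*) and junctional adhesion molecule A (*F11r*) came next and could not be ordered. RNA of *Gja1* stood at 88.0 ± 7.02 and that of *F11r* at 86.8 ± 5.16 CPM per kilobase (SD, n = 6), and their ranges overlapped in both assays. In footprints they stood at 328 ± 37.2 and 310.5 ± 30.4. *Tjp1*, which encodes the scaffold ZO-1, and *Jam2*, which encodes junctional adhesion molecule B, formed a middle pair in RNA, with 34.6 ± 2.91 and 33.2 ± 2.18 and overlapping ranges. In footprints they came apart, with *Jam2* at 104 ± 10.8 and *Tjp1* at 64.2 ± 2.99, and *Jam2* was the higher in 6 of 6 extracts.

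Occludin (*Ocln*) and N-cadherin (*Cdh2*) followed in RNA with 24.3 ± 2.55 and 20.9 ± 0.951 CPM per kilobase (SD, n = 6), again with overlapping ranges. In footprints *Ocln* stood at 62.4 ± 8.62, with a range that overlapped that of *Tjp1*, and *Cdh2* at 56.1 ± 4.53. The other claudins were far lower. *Cldn5*, the main claudin of endothelial barriers that Sertoli cells also make, had 9.59 ± 1.40 in RNA and 14.1 ± 3.15 in footprints, at the 43.3rd and 36.5th percentile. *Cldn3*, a claudin of newly formed Sertoli junctions, was the lowest, with 2.73 ± 0.762 and 5.70 ± 1.55, at the 20.6th and 21.4th percentile. It rested on 42 to 124 counts per RNA library and 20 to 55 counts per footprint library, so its values are the least precise of the 9.

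**Figure D1:**
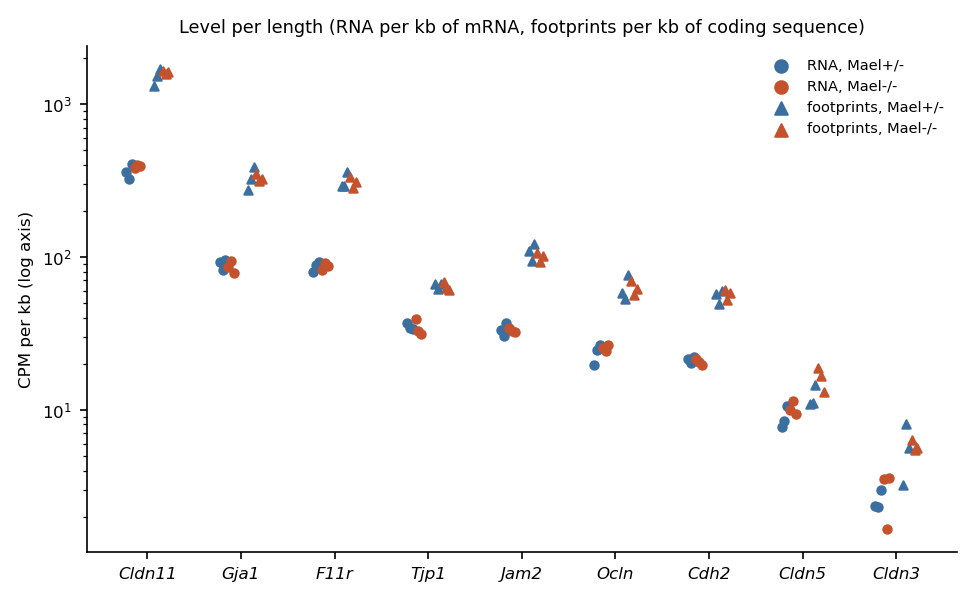
Levels of the 9 junction genes per length in each of the 6 extracts, on a log axis, with RNA as circles and footprints as triangles, RNA given as CPM per kilobase of mRNA and footprints as CPM per kilobase of coding sequence. *Cldn11* stood highest at means of 376 and 1561 and *Cldn3* lowest at 2.73 and 5.70, whereas *Gja1* and *F11r* overlapped in both assays.

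Translation efficiency was read as the log2 ratio of the footprint level to the RNA level of the same extract, both per length. It differed widely among the 9 genes. For the median and the percentiles, levels were averaged over the 6 extracts before the ratio was taken. On that scale 8 of 9 lay above the median of all 13395 genes, which was 0.87 with quartiles of 0.44 and 1.39. *Cldn11* had ratios of 1.86, 2.25 and 2.08 in *Mael*+/- and 2.11, 1.97 and 2.05 in *Mael*-/- extracts, at the 91.0th percentile. *Gja1* and *F11r* followed with means of 1.89 ± 0.19 and 1.84 ± 0.14 (SD, n = 6).

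*Cldn5* was the 1 gene below the median. Its ratios were 0.50, 0.39 and 0.44 in *Mael*+/- and 0.91, 0.53 and 0.46 in *Mael*-/- extracts, with a mean of 0.54 ± 0.19 at the 31.3rd percentile. Between them stood *Jam2* at 1.64 ± 0.08, *Cdh2* at 1.42 ± 0.10, *Ocln* at 1.35 ± 0.19, *Cldn3* at 1.06 ± 0.56 and *Tjp1* at 0.89 ± 0.07. The ratios of every pair of neighbours in this order overlapped. *Tjp1* stood close to the median of all genes, at the 51.3rd percentile. Its ratios ran from 0.80 to 0.96 and those of *Cldn3* from 0.46 to 1.79, so single extracts of both fell below that median. The ratio per length depends on how much of the mRNA is coding. Coding sequence made up 18.6% of the *Jam2* mRNA and 74.5% of the *Tjp1* mRNA, so an mRNA isoform shorter than the annotated span would shift these values.

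The comparison of *Mael*-/- with *Mael*+/- testes asked whether the loss of *Mael*, which acts in germ cells, was accompanied by a change in the junction genes. No change was called in any of the 9 genes. With edgeR's quasi-likelihood test and Benjamini-Hochberg adjustment at 0.05, 0 of 9 were called in RNA, 0 of 9 in footprints and 0 of 9 in translation efficiency, and 0 of 9 had an unadjusted p under 0.05 in any of the 3. DESeq2 called 0 of 9 as well. Over all genes the test called 17 of 14685 in RNA (0.116%), 8 of 13500 in footprints (0.0593%) and 0 of 13448 in translation efficiency (0%), so a count of 0 among 9 genes was near the background. At an unadjusted p under 0.05 the background was 5.4%, 4.33% and 0.394% in the same order. In whole testes, fewer cells of a type and less RNA per cell cannot be told apart.

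The log2 fold changes of the 9 genes, *Mael*-/- minus *Mael*+/-, lay between -0.07 (*Gja1*) and 0.21 (*Cldn5*) in RNA and between -0.11 (*Jam2*) and 0.42 (*Cldn5*) in footprints. Their medians were -0.0025 and 0.0078, beside -0.0013 and -0.0086 over all genes tested. The 95% confidence interval of the log2 fold change lay within 0.5 of 0 for 7 of 9 genes in RNA and 7 of 9 in footprints, beside 65% and 64% of all genes. It lay within 1 of 0 for 9 of 9 in both assays, beside 88.7% and 90.9%. The genes with wider intervals were *Cldn3* and *Cldn5*, the least abundant. In no gene did the 3 *Mael*-/- values of an assay all stand above or all below the 3 *Mael*+/- values, whereas 10.3% of all genes in RNA and 9.09% in footprints were so separated.

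**Figure D2:**
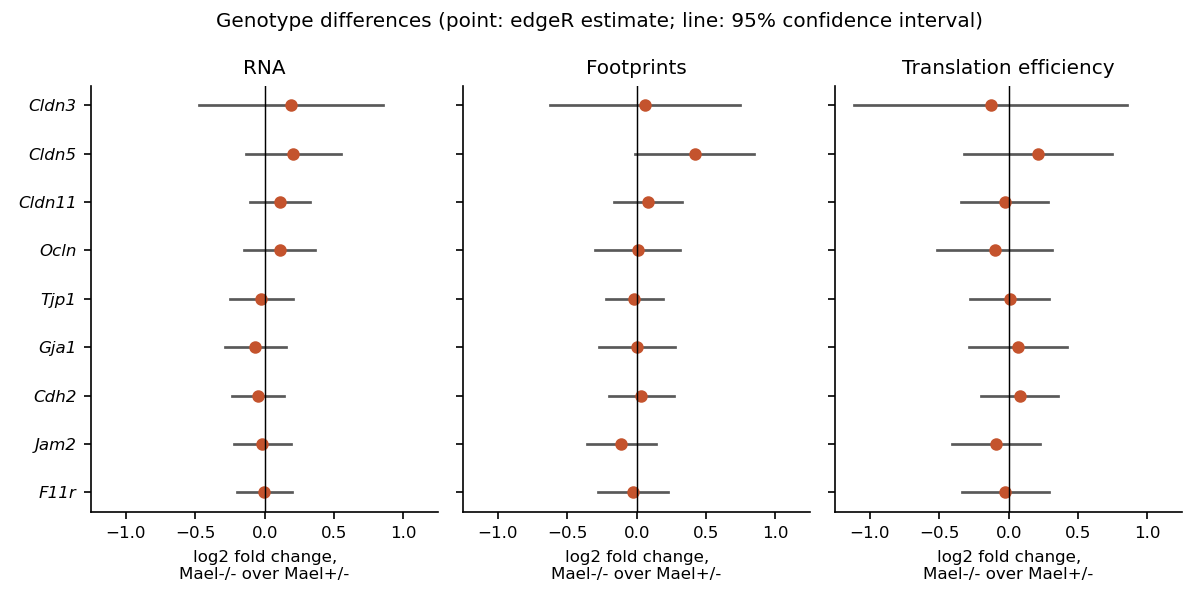
Log2 fold change, *Mael*-/- minus *Mael*+/-, of each junction gene in RNA, footprints and translation efficiency, with lines for the 95% confidence interval. Every interval includes 0, and the widest are those of *Cldn3*, whose translation efficiency interval runs from -1.11 to 0.85.

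*Cldn11* RNA was 675, 602 and 753 CPM in the 3 *Mael*+/- libraries and 712, 748 and 733 in the 3 *Mael*-/- libraries. Its footprints were 819, 957 and 1063 in *Mael*+/- and 1022, 976 and 1009 in *Mael*-/- libraries. The *Mael*-/- values lay inside the *Mael*+/- range in both assays and varied less. The log2 fold change was 0.11 (SE 0.10, 95% interval -0.10 to 0.33) in RNA and 0.08 (SE 0.11, interval -0.16 to 0.33) in footprints.

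*Cldn5* RNA was 10.8, 11.9 and 15.0 CPM in *Mael*+/- and 14.1, 16.2 and 13.3 in *Mael*-/- libraries. Its footprints were 7.10, 7.24 and 9.46 in *Mael*+/- and 12.3, 10.9 and 8.54 in *Mael*-/- libraries. The lowest *Mael*-/- value fell below the highest *Mael*+/- value in both assays, so the groups overlapped. The footprint estimate was the farthest from 0 of the 9 genes, at 0.42 (SE 0.19, interval -0.01 to 0.85, edgeR adjusted p = 0.998), beside 0.21 (SE 0.15, interval -0.14 to 0.55) in RNA. Its footprint estimate ran from 0.29 to 0.57 when single libraries were left out, with an adjusted p of at least 0.427. The unadjusted edgeR p of *Cldn5* fell under 0.05 without the third *Mael*+/- library, in RNA (0.0447) and in footprints (0.0221), without the third *Mael*-/- footprint library (0.0265), and in footprints with no filter on low counts (0.0475).

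*Cldn3* RNA was 2.95, 2.93 and 3.78 CPM in *Mael*+/- and 4.44, 2.08 and 4.52 in *Mael*-/- libraries. Its footprints were 2.12, 5.30 and 3.71 in *Mael*+/- and 4.16, 3.59 and 3.68 in *Mael*-/- libraries. The second *Mael*-/- library was the lowest of the 6 in RNA and the first *Mael*+/- library the lowest in footprints. At 0.19 (SE 0.30, interval -0.47 to 0.85) in RNA and 0.06 (SE 0.31, interval -0.62 to 0.74) in footprints, a change of up to 1.81-fold in RNA was not excluded by the interval at this depth.

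*Ocln*, the tetraspan protein of the tight junction strand, had RNA levels of 82.3, 103 and 111 CPM in *Mael*+/- and 106, 102 and 112 in *Mael*-/- libraries. Footprints of *Ocln* were 98.9, 90.3 and 129 in *Mael*+/- and 119, 96.3 and 105 in *Mael*-/- libraries. The groups overlapped, and the first *Mael*+/- library was the lowest in RNA. Fold changes of 0.11 (SE 0.11, interval -0.15 to 0.36) and 0.01 (SE 0.14, interval -0.30 to 0.31) on the log2 scale were estimated in RNA and footprints.

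Of the junctional adhesion molecules, *F11r* RNA was 197, 218 and 231 CPM in *Mael*+/- and 203, 226 and 216 in *Mael*-/- libraries. Footprints of *F11r* were 261, 262 and 326 against 299, 256 and 279. *Jam2* RNA was 160.5, 146 and 177 CPM in *Mael*+/- and 166, 157 and 155 in *Mael*-/- libraries. For both genes the *Mael*-/- RNA values lay inside the *Mael*+/- range. *Jam2* footprints were 98.1, 83.8 and 109 in *Mael*+/- and 95.5, 82.8 and 91.2 in *Mael*-/- libraries, and 1 *Mael*-/- value fell just below that range. The footprint estimates were -0.03 (SE 0.11, interval -0.28 to 0.23) for *F11r* and -0.11 (SE 0.11, interval -0.36 to 0.14) for *Jam2*.

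The scaffold gene *Tjp1* had RNA levels of 261, 244 and 240.4 CPM in *Mael*+/- and 279, 233 and 221 in *Mael*-/- libraries. Footprints of *Tjp1* were 349, 328 and 349 against 362, 331 and 321. The first *Mael*-/- library was the highest and the third the lowest of the 6 in both assays. Its log2 fold change was -0.02 in RNA (SE 0.10, interval -0.25 to 0.20) and -0.02 in footprints (SE 0.09, interval -0.22 to 0.19).

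*Gja1* RNA was 287, 255 and 297 CPM in *Mael*+/- and 268, 291 and 242 in *Mael*-/- libraries. Its footprints were 315, 372 and 444 in *Mael*+/- and 399, 362 and 371 in *Mael*-/- libraries. The spread among the controls exceeded the difference between the group means, which were both 377 CPM in footprints. *Cdh2* RNA was 104, 97.5 and 107 CPM in *Mael*+/- and 104, 99.7 and 94.8 in *Mael*-/- libraries, and its footprints were 156, 133 and 163 against 164, 142 and 157. The *Cdh2* groups overlapped in both assays. In RNA the log2 fold change was -0.07 (SE 0.10, interval -0.29 to 0.15) for *Gja1* and -0.05 (SE 0.08, interval -0.23 to 0.14) for *Cdh2*.

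**Figure D3:**
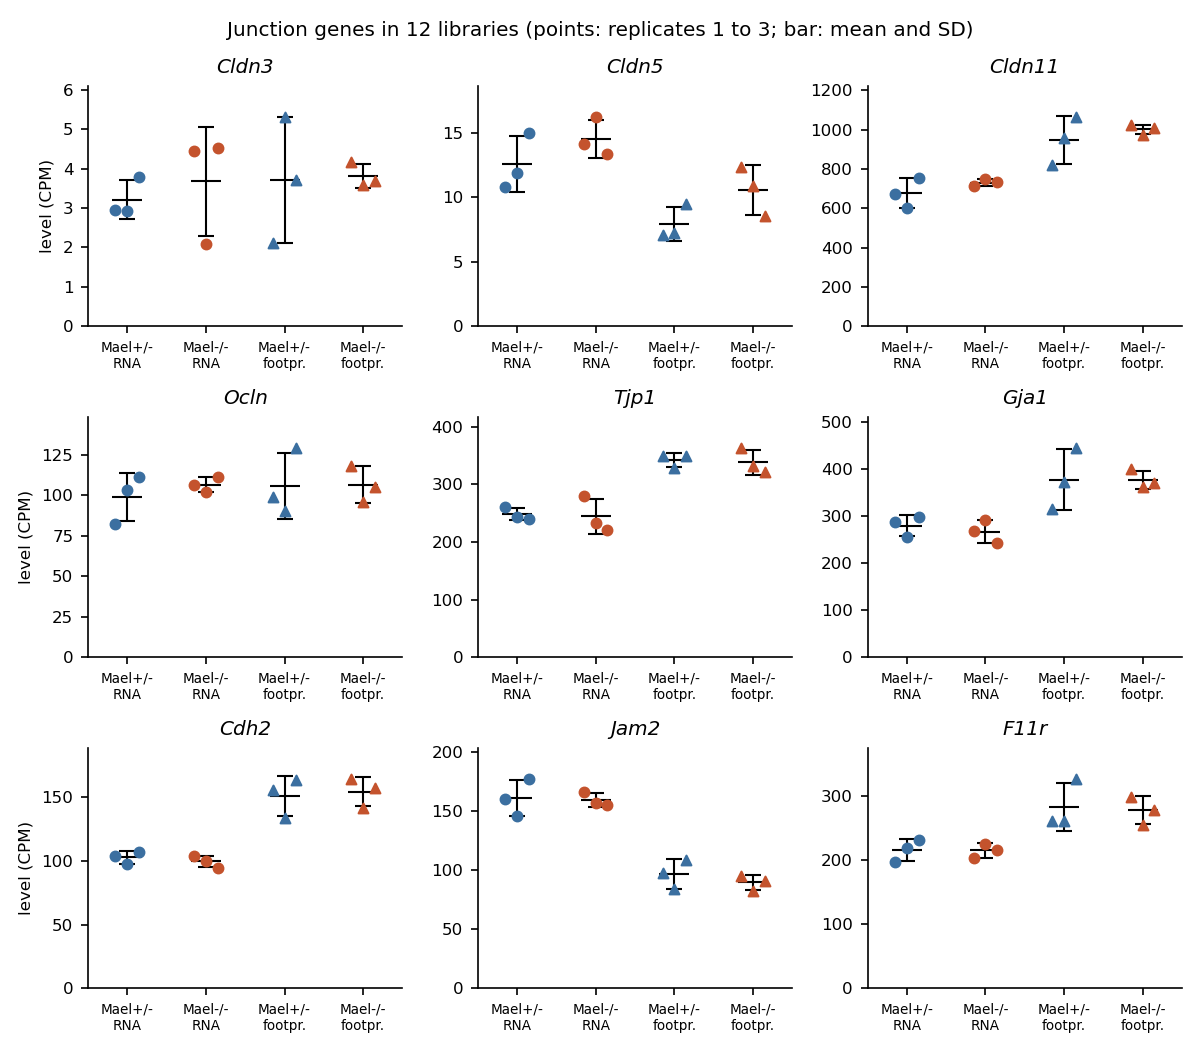
CPM of each junction gene in every library, with RNA and footprints apart, a point for each library and bars for the mean and SD of each group of 3. The points of *Mael*+/- and *Mael*-/- testes overlap in every panel, and *Cldn5* footprints have means of 7.94 and 10.6 CPM.

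Leaving out the first *Mael*+/- extract, whose germ cell markers stood apart, gave 0 of 9 genes called in RNA and 0 of 9 in footprints. In translation efficiency its RNA and its footprint library were left out one at a time, not together, and 0 of 9 genes were called in either fit. The RNA estimates then ran from -0.06 (*F11r*) to 0.13 (*Cldn3*) and the footprint estimates from -0.21 (*Cldn3*) to 0.34 (*Cldn5*).

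For translation efficiency, the test asked whether the genotypes differed by unequal amounts in footprints and RNA, in 1 fit to the 12 libraries. This fit had no term for the extract, although RNA and footprints of an extract deviated together. It gave 53 of 13448 genes (0.394%) an unadjusted edgeR p under 0.05, against 281 genes with the extract as a block. The estimates ran from -0.13 for *Cldn3* (SE 0.46) to 0.21 for *Cldn5* (SE 0.25, interval -0.32 to 0.75). The interval lay within 0.5 of 0 for 6 of 9 genes, beside 53% of all genes, and within 1 of 0 for 8 of 9, beside 87%. For *Cldn11*, the best measured of the claudins, the estimate was -0.03 (SE 0.15, interval -0.34 to 0.28). The 95% interval of this fit without an extract term spans 0.789-fold to 1.22-fold.

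The genes of the same junctions that are no members were taken from 4 lists. Of 28 other tight junction genes tested in RNA, 1 rose and 0 fell, and in footprints 0 of 22 were called. The gene that rose was *Inadl*, now named *Patj*, which encodes a scaffold with many PDZ domains that links the Crumbs polarity complex to tight junctions. *Inadl* RNA was 31.5, 33.7 and 27.4 CPM in *Mael*+/- and 58.1, 58.9 and 61.0 in *Mael*-/- libraries. All 3 *Mael*-/- values stood above the *Mael*+/- values, and the log2 difference was estimated at 0.94 with an SE of 0.10 (adjusted p = 0.00647 with edgeR).

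Footprints of *Inadl* were 39.0, 36.3 and 32.7 CPM in *Mael*+/- and 57.8, 52.5 and 54.5 in *Mael*-/- libraries. These groups did not overlap either, but the estimate of 0.61 (SE 0.11) did not pass the edgeR test (adjusted p = 0.177), whereas it passed with DESeq2 (adjusted p = 0.0134) and without the first *Mael*+/- footprint library (edgeR adjusted p = 0.0441). The RNA call was lost when any *Mael*-/- RNA library was left out, with edgeR adjusted p-values of 0.0760, 0.0695 and 0.0726, and when libraries were scaled to Sertoli markers (adjusted p = 0.117), with estimates from 0.92 to 0.95 in these 4 settings. The translation efficiency estimate of *Inadl* was -0.33 (SE 0.14, interval -0.63 to -0.03). Its unadjusted edgeR p was 0.0319, and it was not called after adjustment. *Inadl* was the 1 gene of 22 tested in this list with an unadjusted p under 0.05 in translation efficiency. Among all genes tested, 53 of 13448 (0.394%) had such a p.

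Of the other tight junction genes, *Cldn7* had 4.38, 3.62 and 4.46 CPM in *Mael*+/- RNA and 7.35, 5.75 and 5.69 in *Mael*-/- RNA. The difference of 0.59 on the log2 scale (SE 0.19) did not pass the edgeR test (adjusted p = 0.789). The median over the list was 0.01 in RNA and -0.01 in footprints. *Cldn4*, a close relative of *Cldn3*, had the lowest estimate of the list's genes with enough counts, at -0.44 (SE 0.40) in RNA, and was not called.

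Of 20 other adherens junction genes, 0 were called in RNA and 0 in footprints, with medians of 0.03 and 0.04. The estimates in RNA ran from -0.36 (SE 0.19) for *Pvrl1*, which encodes nectin-1, to 0.16 (SE 0.10) for *Espn*, which encodes the actin bundler espin of the ectoplasmic specialization. The *Pvrl1* estimate moved to -0.17 without the second *Mael*+/- RNA library and to -0.24 without the first *Mael*-/- RNA library, and the *Espn* estimate to 0.09 without the latter. Of the gap junction and desmosome genes, 0 of 17 were called in RNA and 0 of 14 in footprints. The estimates of 12 of 17 and 11 of 14 stood below 0, with a median of -0.13 in both assays. The RNA median was -0.20 without the first *Mael*+/- library, -0.05 without the second, -0.04 without the third and -0.06 without the second *Mael*-/- library. *Gjb2*, the connexin 26 gene, had the lowest estimate with -0.38 (SE 0.20) in RNA and -0.55 (SE 0.27) in footprints. *Gja6*, another connexin gene, stood at 0.39 (SE 0.13) in footprints. Neither gene passed the test in either assay.

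The barrier regulators, such as TGF-beta ligands, had 0 of 16 genes called in RNA and 0 of 15 in footprints, with medians of 0.03 and 0.05. Footprints of *Tgfb2*, whose product loosens the barrier, were 11.6, 11.9 and 13.8 CPM in *Mael*+/- and 9.01, 9.18 and 10.1 in *Mael*-/- libraries. These did not overlap, but the estimate was -0.40 (SE 0.15) with an edgeR adjusted p of 0.998. *Palld*, an actin cross-linker of Sertoli cells, stood at 0.35 (SE 0.14) in footprints and was not called.

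The cell types that could carry these genes were checked by their markers. The summed level of 12 Sertoli markers ran from 7463 to 8816 CPM in *Mael*+/- RNA and from 8034 to 8691 in *Mael*-/- RNA, and that of the 9 junction genes from 1682 to 1935 and from 1792 to 1875. In footprints the junction genes summed to between 2105 and 2596 CPM in *Mael*+/- and between 2260 and 2477 in *Mael*-/- libraries. Both sums overlapped between the genotypes, and the Sertoli list had a median log2 fold change of 0.00 in both assays with 0 of 12 called.

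Endothelial markers summed to between 141 and 174 CPM in *Mael*+/- RNA and between 156 and 174 in *Mael*-/- RNA, with *Cdh5*, the cadherin of endothelial junctions, at means of 33.3 and 33.7 CPM. The part of vessels in the *Cldn5* level was not tested. Duct epithelium markers summed to between 5.45 and 7.50 CPM over all RNA libraries, with *Cdh16* at means of 0.497 and 0.766 CPM. Macrophage markers had estimates above 0 in 8 of 8 genes in both assays, with medians of 0.37 in RNA and 0.24 in footprints and 0 called. Peritubular myoid markers, of the contractile cells around the tubule, had estimates above 0 in 5 of 6 genes in both assays, with medians of 0.19 and 0.22 and 0 called. Their sums did not overlap between the genotypes, at 1014 to 1039 against 1099 to 1152 CPM in RNA and 1446 to 1642 against 1644 to 1954 CPM in footprints. The RNA sums of pachytene markers and of the gap junction and desmosome list did not overlap either. The latter ran from 220 to 229 CPM in *Mael*+/- and from 212 to 218 in *Mael*-/- libraries. Of all single genes, 10.3% in RNA and 9.09% in footprints were so separated, but this share is not a background for sums over lists. Leydig markers had medians of 0.05 in RNA and 0.07 in footprints, spermatogonial markers -0.03 and -0.04, and early meiotic markers -0.36 and -0.60, with 0 called in each list. Pachytene markers had estimates below 0 in 7 of 7 genes in RNA and 4 of 4 in footprints, with medians of -1.08 and -1.55 and 0 called. Their summed RNA level ran from 215 to 660 CPM in *Mael*+/- libraries, the highest in the first extract, and from 167 to 197 in *Mael*-/- libraries. The part of these marker differences in the values of the junction genes was not tested.

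**Figure D4:**
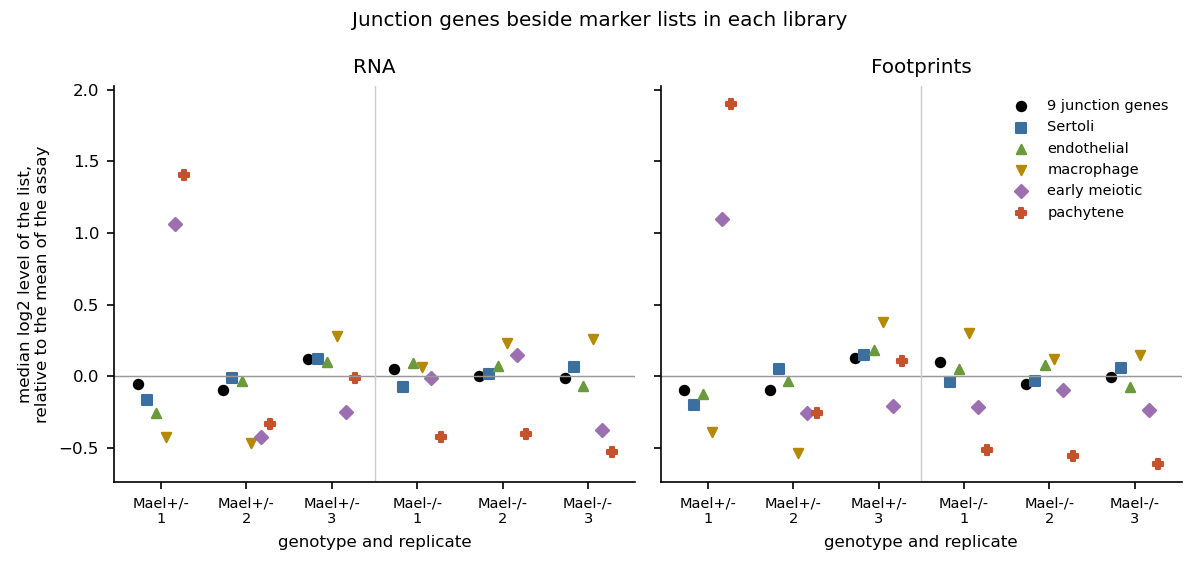
Median log2 level of the 9 junction genes and of 5 marker lists in each library, relative to the mean of the 6 libraries of the assay. The junction genes stay near 0 in every library, whereas the pachytene markers reach 1.41 in RNA and 1.90 in footprints in the first *Mael*+/- extract.

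The levels of the 9 genes were compared across libraries by Pearson's r of log2(CPM + 0.5), centred within each assay, over 12 libraries. The libraries come from 6 extracts, so the points of an extract are not independent, and no test was made. *F11r* and *Ocln*, both of the tight junction, were the most alike with r = 0.86, and *Jam2* and *Cdh2* followed with r = 0.83. *Cldn11* was most like *Gja1* (r = 0.70) and *Cldn5* (r = 0.66). *Tjp1* and *Cldn3* went with few of the others, and the lowest value was -0.23 between *Cldn3* and *Cdh2*.

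**Figure D5:**
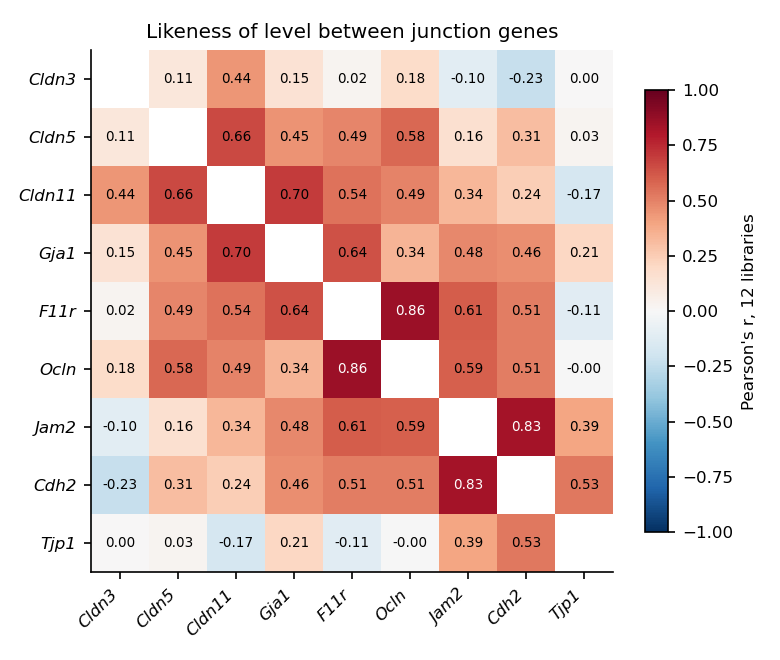
Pearson's r between the levels of each pair of junction genes over 12 libraries from 6 extracts, after centring within each assay. *F11r* with *Ocln* (0.86) and *Jam2* with *Cdh2* (0.83) are the highest pairs, and *Tjp1* stands near 0 with most genes.

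Among 12536 other genes, those most like a junction gene were not junction genes. *Ocln* was most like *Scarb2* (r = 0.99), *Wdr82* (0.99) and *Cmtm6* (0.96), and *F11r* was most like *Npc2* (0.92), *Fuca2* (0.92) and *Ctsa* (0.91). *Cldn11* was most like *Lingo2* (0.94), *Zdhhc12* (0.92) and *C1qtnf6* (0.92), *Cldn5* like *Gpr128* (0.96), *Pfkl* (0.92) and *Gne* (0.92), and *Cldn3* like *Plekha6* (0.92), *Srgap3* (0.89) and *Tor1aip1* (0.88). For *Gja1* these were *Myadm* (0.92), *Atxn7l3b* (0.88) and *Ccdc11* (0.87), for *Tjp1* *Ktn1* (0.91), *Gxylt1* (0.90) and *Senp7* (0.88), for *Cdh2* *Alkbh8* (0.92), *Sept2* (0.92) and *G3bp2* (0.91), and for *Jam2* *Rab5a* (0.94), *Fundc1* (0.93) and *Vcan* (0.92).

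The median r with the marker lists set the junction genes apart from each other. *Cldn5* had a median r of 0.76 with macrophage markers, 0.62 with endothelial markers, 0.60 with peritubular myoid markers and 0.08 with Sertoli markers. *F11r* had the highest median with Sertoli markers, at 0.48, but stood higher with macrophage markers, at 0.60. *Cldn11* (0.37), *Gja1* (0.36), *Ocln* (0.35) and *Cldn3* (0.35) followed close together with Sertoli markers. *Jam2* (0.13) and *Cdh2* (0.07) stood near *Cldn5* with Sertoli markers, whereas *Tjp1* had -0.35. *Cldn11*, *Ocln* and *Cldn5* all stood above 0.7 with macrophage markers, which were low in the first and second *Mael*+/- extracts (medians of -0.43 and -0.47 in RNA) and higher in the third (0.28). These values share libraries, depth and scaling.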

How the data were processed

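Total RNA (TruSeq Stranded, Ribo-Zero) and MNase ribosome footprints were sequenced from P16 *Mael*+/- and *Mael*-/- testes, 3 extracts per genotype. Per the study's methods, the authors clipped footprint reads and trimmed a UMI, removed rRNA reads with Bowtie 1.2.2, aligned to mm10 with STAR 2.6.0c and counted with featureCounts (Subread 1.6.4), taking the full mRNA for RNA libraries but coding sequence alone for footprints. UMI collapsing, strand setting and gene annotation are not given in the sources used here. The deposited values are raw counts per gene and repeat copy, of which the gene rows were used. The deposited tables of the authors' own DESeq2 1.24.0 comparisons (fold changes and p-values) were not used.

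Genes were filtered (filterByExpr), scaled by TMM and tested with edgeR 4.0.16 in R 4.3.3 (quasi-likelihood F-test, Benjamini-Hochberg adjusted p under 0.05) over the 6 RNA libraries, the 6 footprint libraries, or all 12 for the genotype by assay interaction. CPM are counts per 1000000 of the TMM-scaled gene total. The scripts were tested on simulated data. Lengths came from curated RefSeq transcripts on GRCm38.p6, the build named mm10, and their annotation may differ from that of the counts. Coordinates and sequence of *Cdh2* are not reported here. RNA and footprints of an extract deviated together from their group means (r of 0.81, 0.67 and 0.73 in *Mael*+/-, 0.27, 0.29 and 0.28 in *Mael*-/-, 11235 genes), and the extract was added as a block in an alternative fit.

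The 9 genes and all lists were chosen with earlier results of these data known. Text names the 9 genes, *Mael*, genes of the 4 junction and regulator lists with an unadjusted p under 0.05 or the highest or lowest RNA fold change (mean count of at least 20), defining and called markers, and the 3 genes most like each member, of which some are not reported here. Alternatives were DESeq2 1.42.0, median-of-ratios size factors, no filter, a replicate block, scaling to Sertoli markers, and leaving out each library.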

Additional observations from a re-analysis of the deposited data

How the results depend on the processing

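Of 874 values recomputed under alternatives, 800 kept their direction and side of the threshold (or, for counts, stayed within 1.5 times, and for medians, within the spread), and 0 of 351 fold changes of the 9 genes passed the threshold. Genes called in RNA were 17, against 66 with DESeq2, 50 with a replicate block, 9 scaled to Sertoli markers and 2 to 64 with a library left out. In footprints they were 8, against 26 with DESeq2, 23 with the block and 2 to 17 with a library left out. Other tight junction genes called ran from 0 to 1 in both assays. The labels give samples of the 2 genotypes with the same number no other link. Their deviations from the group means correlated with r of 0.29, -0.04 and 0.20 in RNA and 0.09, 0.29 and 0.06 in footprints. Whether they share more than the number was not tested. The extract block changed no call in translation efficiency, with 281 genes at an unadjusted p under 0.05 against 53. The *Gja1* footprint estimate changed sign to -0.000116 with DESeq2 and -0.000223 with median-of-ratios.

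Leaving out single libraries turned the sign of small estimates. In RNA the ranges were -0.00293 to 0.474 (*Cldn3*), -0.00831 to 0.200 (*Ocln*), -0.132 to 0.0443 (*Tjp1*), -0.0836 to 0.0552 (*Jam2*), -0.0623 to 0.0491 (*F11r*), -0.0357 to 0.0337 (tight junction list median), -0.0140 to 0.0515 (adherens list median) and -0.00825 to 0.0586 (regulator list median). In footprints they were -0.214 to 0.384 (*Cldn3*), -0.0132 to 0.175 (*Cldn11*), -0.0950 to 0.175 (*Ocln*), -0.0699 to 0.0192 (*Tjp1*), -0.115 to 0.137 (*Gja1*), -0.0477 to 0.0940 (*Cdh2*), -0.0849 to 0.0884 (*F11r*), -0.302 to 0.0424 (*Pvrl1*) and -0.0287 to 0.0359 (tight junction list median). In translation efficiency they were -0.417 to 0.194 (*Cldn3*), -0.125 to 0.0633 (*Cldn11*), -0.203 to 0.0672 (*Ocln*), -0.0622 to 0.115 (*Tjp1*), -0.0480 to 0.204 (*Gja1*), -0.000803 to 0.141 (*Cdh2*), -0.0816 to 0.0914 (*F11r*) and -2.19 to 3.60 (*Mael*, 7 counts or fewer in mutants). Estimates of *Cldn5* stayed above 0 in every setting, at 0.11 to 0.35 in RNA and 0.29 to 0.57 in footprints. The cause of these shifts was not tested. Depth limits *Cldn3* most, at 20 to 124 counts per library.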
